A study of Mus musculus with 2 samples.

Results

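The 6 genes described here set whether a neuron releases glutamate or GABA, and they were chosen by name: Slc17a6, Slc17a7, Slc17a8, Gad1, Gad2 and Slc32a1. They are 6 of the 32285 gene rows in the deposited tables, and all 6 were found through their Ensembl identifiers. Single-nucleus RNA sequencing was performed on mouse thalamus, with 1 library from the Sham operation and 1 from Cortical ablation injury, in which sensory and motor cortex on the right was aspirated. Animals of both groups were C57BL/6J females aged 3 months, collected on day 21 after surgery from the side of the operation, and the sham mice had a burr hole only. Each library pooled sorted nuclei of 4 mice that carry no mark to separate them, so a group is 1 sample. No difference between the libraries therefore has a replicate check, no test was possible, and every interval below is a 95% interval that covers counting error only.

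Glutamate is packed into synaptic vesicles by the vesicular glutamate transporters, which are encoded by Slc17a6 (VGLUT2), Slc17a7 (VGLUT1) and Slc17a8 (VGLUT3). GABA is made from glutamate by the glutamate decarboxylases GAD67 (Gad1) and GAD65 (Gad2), and it is loaded into vesicles by the shared GABA and glycine transporter encoded by Slc32a1. In the thalamus, relay neurons project to cortex and are known for Slc17a6, cortical pyramidal neurons are known for Slc17a7, and the reticular nucleus forms a GABAergic shell around the relay nuclei.

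The filters left 16373 nuclei of the sham library, at a median depth of 7190 UMIs (unique molecular identifiers, each standing for 1 captured transcript), and 21777 of the injury library, at 6810. The 2 tables shared 101 barcode sequences. Clusters were made without the 6 genes and gave 23 neuron clusters, numbered in order of size before mixed nuclei were set aside, beside glia, mural cells and a mixed group of nuclei that was 98.8% called doublets. Of these neuron clusters, 3 were nearly or wholly missing from the sham library: cluster 16 had 2 sham and 401 injury nuclei, cluster 20 had 0 and 279, and cluster 22 had 0 and 219. The highest of the fixed marker lists was the cortical glutamatergic list in cluster 20, with Neurod6 among its leading genes, and the dentate granule list in cluster 22. Checked against the thalamic label, the relay list (Tcf7l2, Lef1, Prkcd, Ntng1, Synpo2) stood highest in 10 clusters and the reticular list (Six3, Isl1, Pvalb, Ecel1, Spp1) in clusters 9 and 0, in the latter at a lower height. In these 12 clusters lay 55.8% of the sham library's nuclei and 49.2% of those after injury. Cluster 0 alone made up 12.2% and 14.8% of the nuclei, at a height of 2.08 against 4.28 in cluster 9. It was led by Gata3, Pax3, Pax6 and Lhx1, which are not on the reticular list, so its place among these 12 is less sure. The other 11 neuron clusters stood highest on habenula, cortical, dentate granule, ependymal or oligodendrocyte lists, and clusters 2, 14, 16, 21 and 23 did so by a small margin over the next list. Dissection of the blocks and the injury itself cannot be told apart as sources of the 3 uneven clusters, so results that rest on them are also given without them.

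Of the 6 genes 5 are shown with the 250 bases before their RefSeq start, because Gad1, Gad2 and Slc32a1 varied together over the clusters while Slc17a6 varied inversely, and Slc17a7, the other main vesicular glutamate transporter gene, is shown for comparison. Each sequence is the plus strand of GRCm38.p6, written 5′ to 3′, with capitals for matches to GGGCGG or its reverse complement. Windows are named by gene:
Gad1, chr2:70561879-70562128: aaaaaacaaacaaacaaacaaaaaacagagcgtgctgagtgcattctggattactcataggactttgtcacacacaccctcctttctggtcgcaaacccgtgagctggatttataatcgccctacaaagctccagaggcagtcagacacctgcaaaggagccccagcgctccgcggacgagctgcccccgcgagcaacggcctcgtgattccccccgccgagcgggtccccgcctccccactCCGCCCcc
Gad2, chr2:22622077-22622326: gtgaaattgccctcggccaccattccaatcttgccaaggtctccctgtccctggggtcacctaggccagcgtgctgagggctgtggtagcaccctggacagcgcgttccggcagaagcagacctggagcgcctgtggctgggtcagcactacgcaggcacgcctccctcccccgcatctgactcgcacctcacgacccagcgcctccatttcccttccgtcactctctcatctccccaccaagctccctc
Slc32a1, chr2:158610508-158610757: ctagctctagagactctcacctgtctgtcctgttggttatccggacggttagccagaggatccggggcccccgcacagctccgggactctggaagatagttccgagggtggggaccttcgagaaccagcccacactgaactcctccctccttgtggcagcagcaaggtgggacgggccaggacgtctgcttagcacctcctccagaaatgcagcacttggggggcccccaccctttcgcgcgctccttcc
Slc17a6, chr7:51621580-51621829: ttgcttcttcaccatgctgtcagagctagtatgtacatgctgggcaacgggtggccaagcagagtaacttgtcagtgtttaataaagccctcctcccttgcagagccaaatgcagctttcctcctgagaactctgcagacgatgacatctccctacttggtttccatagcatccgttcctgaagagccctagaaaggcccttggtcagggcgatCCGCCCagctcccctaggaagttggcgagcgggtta
Slc17a7, chr7:45163671-45163920: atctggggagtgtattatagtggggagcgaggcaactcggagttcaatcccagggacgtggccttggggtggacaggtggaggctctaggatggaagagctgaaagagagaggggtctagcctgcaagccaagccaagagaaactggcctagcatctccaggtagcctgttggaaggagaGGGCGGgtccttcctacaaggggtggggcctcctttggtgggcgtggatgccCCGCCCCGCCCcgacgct

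GGGCGG was searched on both strands in the full 300 base windows, which add 50 bases after the start. It was found 3 times for Slc17a7 and 1 time each for Gad1 and Slc17a6, and these letters were not in the Gad2 or Slc32a1 window. Of all 32851 RefSeq windows of that length, 35.7% hold it. TAATTA was in none of the 5 windows shown and in 5.29% of all windows. It occurred 1 time in each of the second windows of Slc17a6 and Slc17a8. The window of Slc32a1 was 63.3% GC and that of Slc17a6 53.7%, against a median of 52.7% over all windows. CANNTG, which 72.3% of all windows hold, was in all 5. These matches describe letters and are not binding sites.

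In the annotation (GENCODE M21, GRCm38), Gad2 spans chr2:22622205-22693874, Gad1 chr2:70553072-70602014 and Slc32a1 chr2:158610767-158615748, all on the plus strand. Slc17a7 spans chr7:45163949-45176142 and Slc17a6 chr7:51622006-51671119 on the plus strand, and Slc17a8 chr10:89574020-89621253 on the minus strand. Gad1 is overlapped on the opposite strand by Gad1os, and Slc32a1 by Gm14205. On the same strand Gm45072 overlaps Slc17a6, Mir7055 overlaps Slc17a7, and Gm23636 and Mir3967 overlap Gad2. It is not stated whether counting used the strand or introns, so reads of these partners could not be told apart from those of the genes they overlap.

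Over all nuclei, the sham library held more Slc17a6 and the injury library more Gad1, Gad2, Slc32a1 and Slc17a7. Slc17a6 stood at 144 CPM (UMIs of the gene per 1000000 UMIs) in the sham library, with an interval of 142 to 146, and at 118 CPM in the injury library, with an interval of 116 to 119. The log2 ratio of injury to sham was -0.29 (interval -0.31 to -0.26). Gad1 stood at 23.2 CPM in the sham and 34.5 CPM in the injury library, a log2 ratio of 0.58 (0.51 to 0.64). Gad2 stood at 45.7 and 60.1 CPM (0.39, interval 0.35 to 0.44). For the vesicular transporters of lower count, Slc32a1 stood at 3.46 and 4.37 CPM (0.33, interval 0.17 to 0.50). Slc17a7 stood at 24.6 and 27.8 CPM (0.18, interval 0.11 to 0.24), and without the uneven clusters its ratio was -0.12. For Slc17a8, with 3.86 and 3.5 CPM, the interval of the log2 ratio spanned 0, from -0.31 to 0.03. Of the 6 genes, 4 passed a log2 ratio of 0.25 in either direction, and 32.1% of the 20724 genes with at least 50 UMIs did so. With 6 genes, that count says little about them as a set.

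**Figure D1:**
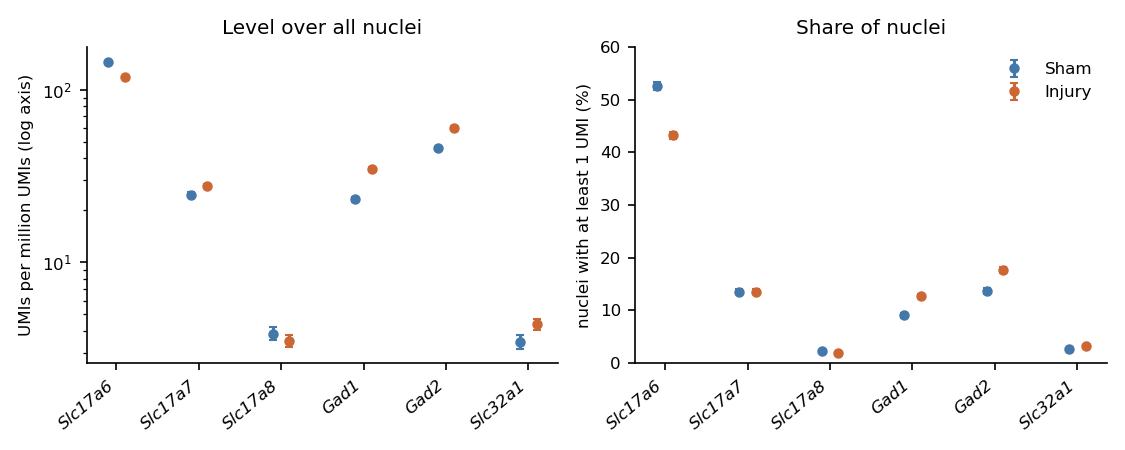
The left panel plots the level of each gene over all nuclei, in CPM on a log axis, and the right panel the percent of nuclei with at least 1 UMI, in the Sham (blue) and Injury (orange) library. Bars are 95% counting intervals. Slc17a6 was found in 52.7% of sham and 43.3% of injury nuclei, and Gad1 and Gad2 in more injury than sham nuclei.

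Detection per nucleus was sparse for all 6 genes. At least 1 UMI of Slc17a6 was found in 52.7% of sham and 43.3% of injury nuclei, and no nucleus had more than 19 UMIs of it. Gad2 was found in 13.7% and 17.7% of nuclei, Slc17a7 in 13.6% of each library, Gad1 in 9.07% and 12.7%, Slc32a1 in 2.65% and 3.25%, and Slc17a8 in 2.32% and 1.88%. No nucleus had more than 3 UMIs of Slc32a1, whereas Gad2 reached 35. Divided by the span of the gene, a scale that holds only if intronic reads were counted, which is not stated, Slc32a1 was at 0.695 CPM per kb in the sham library, Gad2 at 0.638 and Gad1 at 0.473. On the same scale in the sham library Slc17a6 was at 2.93, Slc17a7 at 2.01 and Slc17a8 at 0.0818 CPM per kb. In oligodendrocyte nuclei, which should lack these genes and had a median of 1620 UMIs, Slc17a6 was found in 3.23% of sham and 2.99% of injury nuclei, which is the share to be set against low values elsewhere. Their levels, over both libraries, were 18.1 CPM for Slc17a6, 7.37 for Gad2, 3.68 for Gad1 and 3.01 for Slc17a7. These nuclei were shallower than the neuron clusters, so the same CPM in a neuron cluster stands for more UMIs per nucleus. Microglia, a class of 207 nuclei with a median of 1256 UMIs, held more, with Slc17a6 at 47.8 CPM (interval 29.9 to 72.3) and Gad1 at 21.7 CPM (10.4 to 39.9). Of the microglia 21.3% were called doublets, against 0.273% of the oligodendrocytes, and without them the 163 left held Slc17a6 at 40.6 CPM (19.5 to 74.7) on 10 UMIs and Gad1 at 20.3 CPM (6.60 to 47.4) on 5 UMIs. The part of doublets in these values was not tested.

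The neuron clusters divided into 20 in which the summed level of the 3 Slc17 genes was above that of Gad1, Gad2 and Slc32a1, called Slc17 neurons here, and 3 in which it was below, called Gad neurons. The split was made with the 6 genes themselves, so their levels on the 2 sides are a description. Slc17 neurons were 71.1% of sham and 57.4% of injury nuclei, and Gad neurons 15.0% and 20.3%. Of the UMIs of the Gad and Slc17 genes in Gad neurons, 94.6% were of Gad1 or Gad2, and in Slc17 neurons 5.68% were.

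**Figure D2:**
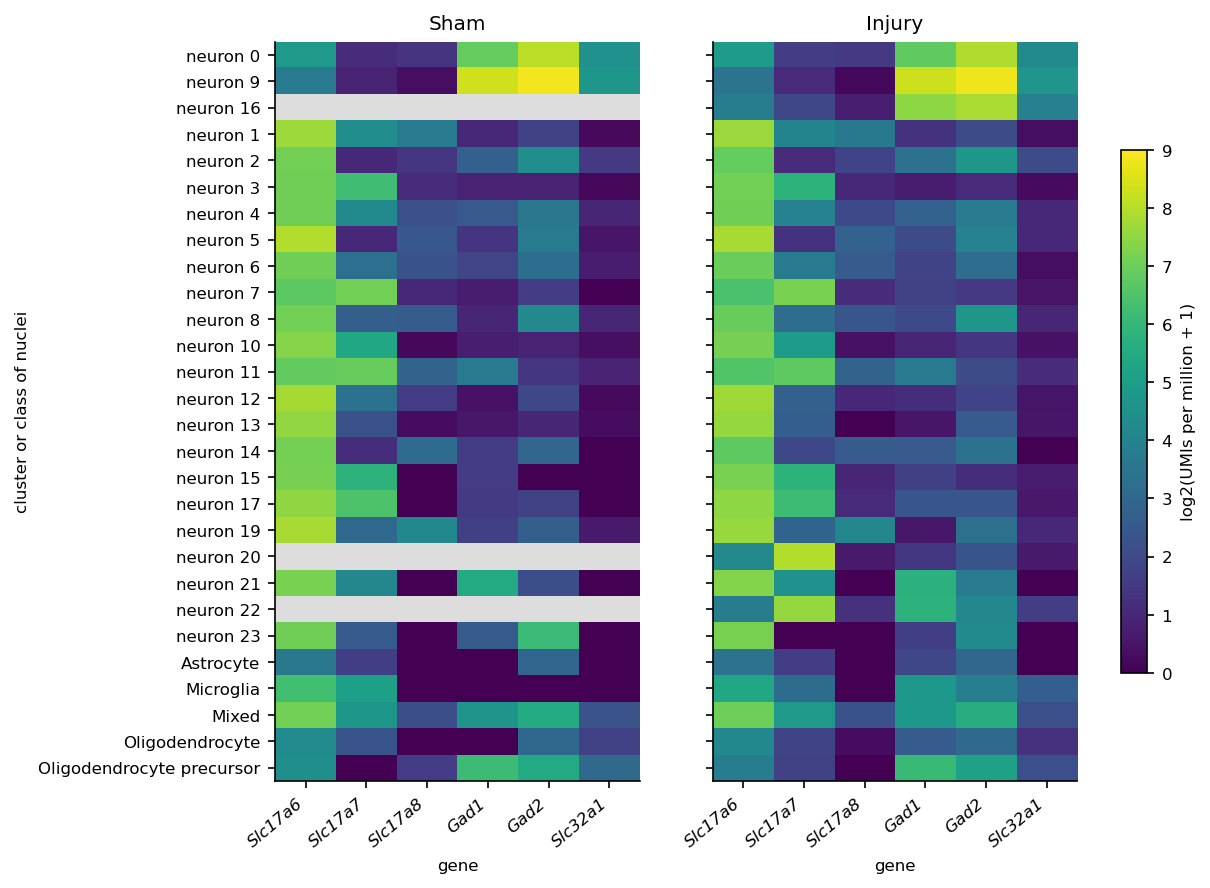
The level of each gene as log2(CPM + 1) in every neuron cluster and glial class, for Sham (left) and Injury (right), with Gad neurons at the top and grey where a library held fewer than 30 nuclei. Neuron clusters 0, 9 and 16 are high in the 3 GABA genes, and Slc17a7 is bright in clusters 7, 11, 20 and 22.

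Slc17a6 was at 92.7 CPM or more in 18 of the 20 Slc17 neuron clusters. Over both libraries it was highest in cluster 5 (leading genes Glis3 and Col12a1), at 238 CPM with an interval of 231 to 245. Clusters 12, 19 and 1 followed at 214, 208 and 201 CPM, and the interval of cluster 19 overlapped those of both its neighbours. The lowest levels among these 18 were in clusters 7 and 11, at 92.7 and 103 CPM, and both stood highest on the medial habenula list (Tac2, Chat, Gng8, Nwd2, Calb2). In contrast, clusters 20 and 22 were at 18.1 and 12.8 CPM, no higher in CPM than the 18.1 CPM of oligodendrocytes. Their deeper nuclei held 63 UMIs in 279 and 18 in 219 nuclei, against 108 in 3295 oligodendrocytes.

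Slc17a7 was far more uneven. It was highest in cluster 20 at 248 CPM (interval 232 to 266) and cluster 22 at 190 CPM (168 to 214), where it made up 93.2% and 93.7% of the UMIs of Slc17a6 and Slc17a7. Both clusters came from the injury library alone. The medial habenula-like clusters 7 and 11 followed with 141 and 114 CPM, and there its share was 60.3% and 52.6%. Of the clusters that scored highest on the relay list, 17, 3, 15 and 10 held 81.3, 64.8, 55.5 and 35.3 CPM. In clusters 2, 5 and 9 its level was 1.23 CPM or less, below the oligodendrocyte value in CPM, and its share in cluster 5 was 0.516%.

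Both transporters were found in the same nuclei. Among Slc17 neurons 1349 sham nuclei had a UMI of each, which was 68.6% of those with Slc17a7 and 17.5% of those with Slc17a6. The injury library had 1385, or 56.4% of those with Slc17a7 (interval 54.4 to 58.3). Without the uneven clusters 20 and 22 its share was 64.4% (62.3 to 66.5), beside 68.6% (66.5 to 70.7) for sham nuclei. Within single clusters the number was near the product of the 2 shares: in cluster 3, a relay-like cluster led by Prkcd, 439 sham nuclei had both against a product of 430, and 398 injury nuclei against 364. In cluster 7, led by Chat and Slc5a7, 105 sham nuclei had both against 97.7, and 166 injury nuclei against 156. In cluster 17 the counts were 81 against 74.1 in the sham library and 55 against 50.8 in the injury library. Nuclei with both transcripts were thus 17.8% to 41.8% of these clusters. When every nucleus was thinned to 3000 UMIs, with the 2372 sham and 4260 injury nuclei below that depth left out, 30.6% of sham and 23.6% of injury Slc17 neurons with Slc17a7 still had Slc17a6, and 28.8% of the latter did without clusters 20 and 22.

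Slc17a8 was the rarest of the 3. Its highest levels were 17 CPM in cluster 19 (interval 13.1 to 21.8; leading genes Adamtsl3 and Hcrtr2) and 11.7 CPM in cluster 1 (10.6 to 12.8; leading genes Pth2r and C6). Cluster 1 held 41.8% of all sham and 34.6% of all injury UMIs of the gene. In cluster 19 the level was 17.6 CPM in the sham and 16.5 CPM in the injury library, and in cluster 1 11.8 and 11.6 CPM, so this order was the same in each. These clusters also held Slc17a6 at 208 and 201 CPM, and over all nuclei 76.1% of sham and 74.1% of injury nuclei with Slc17a8 had a UMI of Slc17a6.

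The 3 GABA genes were highest in cluster 9, which scored highest on the reticular list and was led by Six3 and Pvalb. There Gad2 stood at 463 CPM for sham and 439 for injury nuclei, Gad1 at 326 and 318, and Slc32a1 at 26.0 and 24.7. Cluster 0, the largest, was led by Gata3, Pax3, Pax6 and Lhx1 and held Gad2 at 270 and 242 CPM, Gad1 at 116 and 112, and Slc32a1 at 22.6 and 19.0. Gad2 was found in 90.8% of sham and 87.1% of injury nuclei of cluster 9 but in 57.2% and 55.5% of cluster 0. Cluster 16, led by Ano2 and Prdm16, stood highest on the oligodendrocyte list and then on the reticular list, and 35.5% of it were called doublets. It held Gad2 at 231 CPM and Gad1 at 175 CPM in the injury library. Slc17a6 in cluster 9 was at 10.8 CPM, below the oligodendrocyte value in CPM, and in cluster 0 at 28.7 CPM (26.9 to 30.7), above it. As UMIs per nucleus cluster 9 was not below, with 109 UMIs in 1255 nuclei against 108 in 3295 oligodendrocytes.

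Gad1 and Gad2 were detected together far more often than either with an Slc17 gene. Over all nuclei 78.4% of sham and 73.2% of injury nuclei with Gad1 also had Gad2, and the count was 5.74 and 4.14 times the product of the 2 shares. The counts for Slc17a6 with Gad1 were 0.331 and 0.391 of the product, and for Slc17a6 with Gad2 0.417 and 0.460. Slc32a1 accompanied the decarboxylases: 79.7% of sham and 76.8% of injury nuclei with Slc32a1 had Gad2, while 15.9% and 16.5% had Slc17a6. Shares fall with depth, and after thinning to 3000 UMIs 60.4% of sham and 54.3% of injury nuclei with Gad1 had Gad2.

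The balance of the 2 decarboxylases differed between clusters. Gad1 made up 41.8% of Gad UMIs in cluster 9 (interval 40.7 to 42.9) and 31.0% in cluster 0 (30.2 to 31.9). The nuclei in the mixed group were at 35.4% (33.5 to 37.3), close to the 36.0% of all Gad neurons. In Slc17 neuron cluster 1 the Gad1 share was 31.6% (24.3 to 39.6), and 27.9% (19.5 to 37.5) without called doublets. In cluster 4 it was 32.2% (27.2 to 37.6) on 326 UMIs, and 19.4% (10.4 to 31.4) on the 62 UMIs left without called doublets.

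Other Slc17 neuron clusters had intervals wholly below the share of Gad neurons. It was 24.8% in cluster 2 (21.9 to 27.9), which had the most Gad UMIs of them (810 in all), and 23.8% in cluster 6 (17.7 to 30.9). Without called doublets cluster 2 was at 24.1% (20.9 to 27.6) and cluster 6 at 24.6%, with a wider interval (14.8 to 36.9) that held the 35.6% of Gad neurons so treated. Lower shares, with little Gad1 beside Gad2, were found in clusters 8, 5 and 23. In cluster 8, led by Ptprq and highest on the lateral habenula list (Pou4f1, Gap43, Htr2c, Pcdh10), the Gad1 share was 5.05% in the sham (interval 1.66 to 11.4) and 10.1% in the injury library (5.78 to 16.2). Its Gad2 level was 17.8 CPM in the sham and 26.0 CPM in the injury library, and 19.6 CPM over both (16.9 to 22.7) after called doublets were left out. In cluster 5 the share was 11.9% for sham and 17.5% for injury nuclei, and 7.61% and 10.7% without called doublets. It was, in cluster 23, led by Oxt and Avp, 8.0% over both libraries (2.22 to 19.2). Cluster 23 had Gad2 at 69.9 CPM on 29 UMIs in the sham and 18.3 CPM on 17 UMIs in the injury library. Slc32a1 was not detected in its 194 nuclei and stood at 0.962 CPM in cluster 8 and 0.728 in cluster 5, no higher than the 1.67 CPM of oligodendrocytes.

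Gad1 with little Gad2 was found in clusters 11, 21 and 22 and the oligodendrocyte precursors. In cluster 11, medial habenula-like, the Gad1 share was 87.9% in the sham (71.8 to 96.6) and 78.9% in the injury library (62.7 to 90.4), at levels of 12.1 and 11.9 CPM. Cluster 21, led by Ebf2 and Corin, held Gad1 at 44.6 and 53.3 CPM beside Slc17a6 at 144 and 160 CPM, with a Gad1 share of 83.6% over both libraries. Cluster 22, on the dentate granule list, held Gad1 at 54.8 CPM in 21.5% of its nuclei beside Slc17a7, and 31 of its 219 nuclei had both transcripts against a product of shares of 26.4. Over all its nuclei Gad2 was at 17.1 CPM and the Gad1 share was 76.2% (66.7 to 84.1). Without called doublets its Gad1 level was 52.8 CPM and its Gad2 level 3.98 CPM, a Gad1 share of 93.0%. Granule neurons of the dentate gyrus are known to make some GAD67 although they release glutamate.

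Oligodendrocyte precursors, led by Pdgfra, Neu4 and Cspg4 and highest on the lists of differentiating oligodendrocytes and precursors, had Gad1 at 71.5 CPM in the sham (50.3 to 98.5) and 66.2 CPM in the injury library (49.99 to 85.9). A UMI of Gad1 was found in 20.3% of 143 sham and 19.0% of 216 injury precursors, against 0 of 991 and 0.825% of 2304 oligodendrocytes. Taken as 3 nuclei, the 0 of 991 allows a share with a UMI of up to 0.303%, and the exact interval reaches 0.372%, both limits on detection at this depth. The median depth was 3188 UMIs in precursors and 1620 in oligodendrocytes. Over both libraries Gad2 was at 38.1 CPM in all precursors and 14.1 CPM without called doublets, while Gad1 was at 68.2 and 65.5 CPM, and the Gad1 share was 64.1% and 82.3%.

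**Figure D3:**
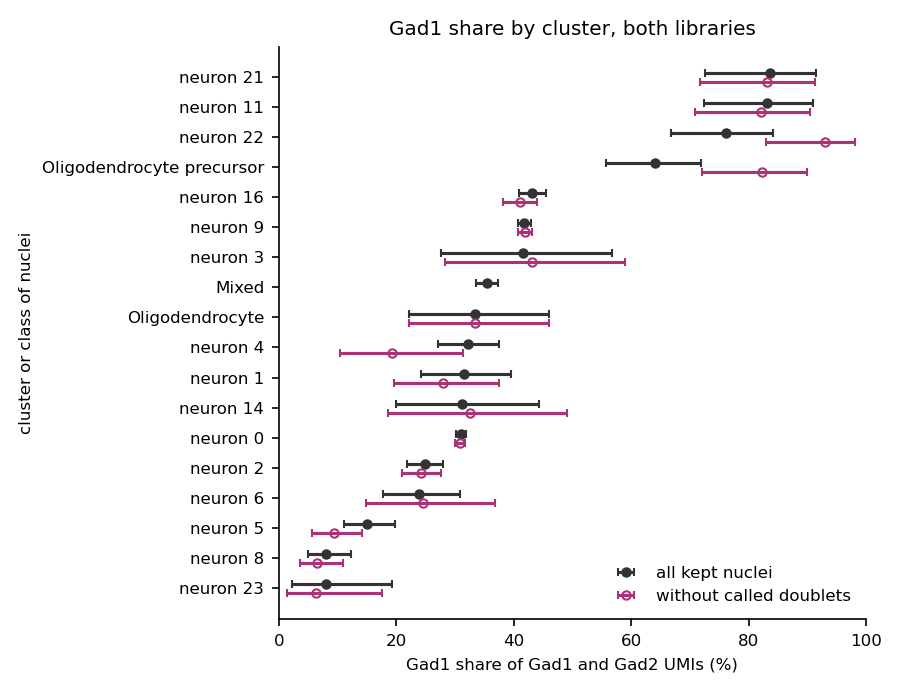
The Gad1 share of Gad1 and Gad2 UMIs, in percent, in each cluster or class with at least 40 such UMIs, both libraries together. Filled points use all kept nuclei, open points leave out called doublets, and bars are 95% binomial intervals. Neuron clusters 8, 5 and 23 lie at the low end, clusters 11, 21 and 22 and the oligodendrocyte precursors at the high end, and neuron clusters 0 and 9 between.

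To find whether nuclei with both transmitter programs were more frequent than doublets alone would give, the nuclei with at least 2 UMIs of the Slc17 genes and at least 2 of Gad1 and Gad2 were counted. The expectation took 0.8% of doublets per 1000 deposited barcodes, or 13.1% for sham and 17.5% for injury nuclei, drawn at random from the nuclei. It counted only pairs with 1 nucleus past the limit on each side. Doublets whose lower counts add up to the limit, and free RNA, were left out, so it may be too low. Their part was not tested. In the sham library 178 nuclei were positive on both sides and 138 were expected, a ratio of 1.29 (interval 1.11 to 1.49). In the injury library 298 were found and 250 expected, a ratio of 1.19 (1.06 to 1.34). The intervals of the 2 libraries overlapped. The same expectation was 85.0 sham and 209 injury nuclei for oligodendrocyte genes (at least 10 UMIs of 8 marker genes, a limit chosen after the data were seen) with Slc17 genes, a pair that should meet in doublets only. There the ratio was 0.741 in the sham (0.569 to 0.948) and 0.960 in the injury library (0.832 to 1.10). For oligodendrocyte with Gad genes it was 1.20 (0.807 to 1.71) and 1.01 (0.824 to 1.23).

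The ratio depended on the threshold. With 1 UMI on each side the ratio was 2.02 for sham and 1.79 for injury nuclei, with 3 UMIs 1.19 and 1.12, and with 5 UMIs 0.747 on 8 nuclei and 0.518 on 10 nuclei. At an assumed doublet share of 0.4% per 1000 barcodes the ratio at 2 UMIs was 2.34 and 2.10. By the same formula, doublets alone would give the counts at 2 UMIs at a doublet share of 18.2% for sham and 22.4% for injury nuclei. Oligodendrocyte limits of 5 and 20 UMIs gave ratios between 0.712 and 1.15.

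**Figure D4:**
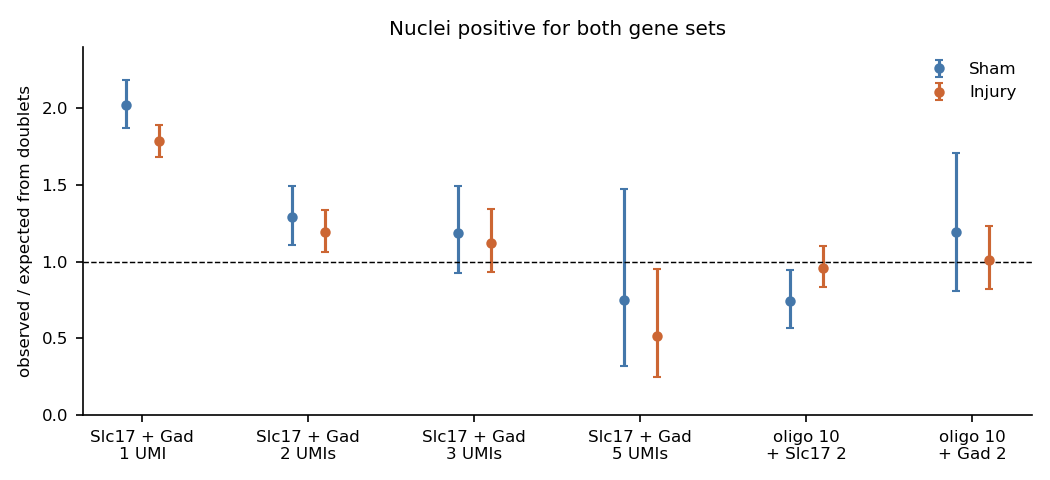
The number of nuclei positive for both gene sets divided by the number expected from doublets at 0.8% per 1000 barcodes, in Sham (blue) and Injury (orange). Bars are 95% Poisson intervals of the observed count, and the dashed line marks 1. The first 4 places raise the UMI threshold for Slc17 and Gad genes from 1 to 5 and the ratio falls from 2.02 to 0.747 in the sham library, and the last 2 places pair oligodendrocyte genes with either set.

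The nuclei with both programs had a median depth of 16652 UMIs for sham and 17405 for injury nuclei, against 10735.5 and 11319 for nuclei with the Slc17 genes alone and 7393 and 7929.5 for those with Gad genes alone, and the need for UMIs of both sets itself selects for depth. Of them 68.0% and 68.5% were called doublets, and 76 of 178 and 127 of 298 lay in the mixed group. The number of called doublets in each library was set by the same assumed share as the expectation. The genes that were not used to choose them lay between the 2 sides: 14 transcription factors of GABAergic neurons, such as Dlx1, Gata3 and Isl1, summed to 76.5 CPM in sham nuclei with both, 191 in those with Gad alone and 5.74 in those with Slc17 alone. In the injury library the values were 69.9, 178 and 6.76 CPM. For 14 genes of thalamic and other glutamatergic neurons, such as Tcf7l2 and Ntng1, sham nuclei with both were at 3506 CPM, between 813 and 6146.

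What was left after called doublets were removed, 57 of 16373 sham and 94 of 21777 injury nuclei, was not spread evenly. Cluster 5 held 15 and 16 of them among its 1016 and 874 nuclei, and cluster 2 14 and 12 among 1627 and 1645. Cluster 0, the largest, held 11 and 21 among 1995 and 3230, and cluster 8 5 and 8 among 774 and 707. The small cluster 21 held 2 and 4 among 71 and 175, and cluster 22 held 8 among its 219 injury nuclei. Cluster 4 went the other way, since 12 of its 12 sham and 13 of its 15 injury nuclei with both were called doublets. In the remaining nuclei a UMI of the 14 GABAergic transcription factors was found in 17.5% of sham and 34.0% of injury nuclei, against 66.1% and 63.2% of the called doublets. Of nuclei with the Slc17 genes alone 5.35% and 6.62% had one. The summed level of these factors was 38.1 CPM (25.3 to 55.0) in the remaining sham and 49.7 CPM (38.1 to 63.7) in the remaining injury nuclei, above the nuclei with the Slc17 genes alone and below the called doublets, which were at 87.9 and 76.0 CPM. The 14 glutamatergic neuron genes were lower in them too, at 2528 and 2550 CPM. Called doublets were at 3796 and 3724 CPM, and nuclei with the Slc17 genes alone at 6146 and 5523 CPM. The remaining nuclei were pooled over both sides, and 14 of the 57 sham and 24 of the 94 injury nuclei lay in Gad neurons. Their levels thus describe the pool and not single nuclei.

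Differences between the libraries were then taken within the 2 sides. In Slc17 neurons Slc17a6 was 166 CPM in the sham and 146 CPM in the injury library, a log2 ratio of -0.18 (interval -0.21 to -0.15). It was -0.13 without the uneven clusters 20 and 22 and -0.11 with clusters weighted by their sham shares. Slc17a7 was 28.3 and 35.7 CPM (0.34, interval 0.27 to 0.40), and without clusters 20 and 22 its ratio was -0.05 with an interval that spanned 0 (-0.12 to 0.02), so the higher level rested on those clusters. The low Gad values were also higher in the injury library, Gad1 at 2.41 and 4.27 CPM (0.82, interval 0.61 to 1.05) and Gad2 at 7.24 and 8.95 CPM (0.31, interval 0.17 to 0.44). Without clusters 20 and 22 Gad1 was at 3.73 CPM in the injury library (0.63, interval 0.40 to 0.86) and Gad2 at 8.996 CPM (0.31, interval 0.18 to 0.45). In oligodendrocytes Gad1 was at 0 CPM in the sham and 5.16 CPM in the injury library, and Gad2 at 7.02 and 7.5 CPM. In CPM the Gad2 values and the injury value of Gad1 thus lie near that background. Oligodendrocytes were shallower, with a median of 1620 UMIs, so a like CPM stands for fewer UMIs per nucleus in them. In the injury library Gad1 had 508 UMIs in 12491 Slc17 neurons and 22 in 2304 oligodendrocytes, and Gad2 had 1064 and 32. The part of this background was not tested. The sham value of Gad1 rested on 257 UMIs, with no Gad1 UMI in sham oligodendrocytes. Of the 6 genes, 4 passed 0.25 in Slc17 neurons, all upward. Of 19479 genes 15.2% did so upward and 28.2% in either direction. Without clusters 20 and 22 it was 3 of the 6, Gad1, Gad2 and Slc32a1, beside 26.7% of all genes.

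In Gad neurons Gad1 stood at 167 and 165 CPM, a log2 ratio of -0.02 (interval -0.09 to 0.05). Gad2 stood at 317 and 282 CPM (-0.17, interval -0.22 to -0.12), and Slc32a1 at 23.4 and 19.5 CPM (-0.26, interval -0.45 to -0.07). Of the 6 genes, 2 passed 0.25, Slc32a1 and Slc17a7, and Slc17a7 rested on 17 sham and 60 injury UMIs. Without cluster 16 the log2 ratio of Slc32a1 was -0.20, short of that limit, that of Gad2 -0.12 and that of Gad1 -0.04. The background was 33.8% of 16029 genes.

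Much of the difference over all nuclei moved with the make-up of the libraries. When the injury levels of each cluster were combined with the cluster shares of sham UMIs, the log2 ratio of Gad1 went from 0.58 to 0.03, that of Gad2 from 0.39 to -0.05, that of Slc32a1 from 0.33 to -0.07 and that of Slc17a6 from -0.29 to -0.09. For Slc17a7 it turned from 0.18 to -0.18. Without the uneven clusters the ratio of Slc17a7 over all nuclei was -0.12.

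Per cluster no share over all genes was taken, and a gene of high count has narrow intervals. The number of clusters whose interval leaves 0 thus says little about a member. Among the 18 Slc17 neuron clusters with at least 50 nuclei in each library, the interval of Slc17a6 lay below 0 in 6, spanned 0 in 12 and was above 0 in none. These 6 were clusters 14 (139 and 109 CPM, log2 ratio -0.35), 11 (114 and 92.4 CPM, -0.30), 7 (105 and 85.2 CPM, -0.30), 2 (134 and 117 CPM, -0.20), 10 (164 and 143 CPM, -0.20) and 5 (247 and 227 CPM, -0.12). Slc17a7 had at least 50 UMIs in 11 of these clusters, and its interval spanned 0 in 7. It was lower in the injury library in clusters 3 (74.8 and 56.1 CPM, -0.42), 10 (40.6 and 30.7 CPM, -0.40) and 1 (20.4 and 15.9 CPM, -0.36), and higher in cluster 6 (8.71 and 12.5 CPM, 0.52). Cluster 3 had the relay gene Prkcd among its leading genes, and its Slc17a6 was 132 and 134 CPM, and its Slc17a7 share was 36.1% (34.3 to 37.9) for sham and 29.5% (27.8 to 31.2) for injury nuclei. Among clusters with at least 50 UMIs of the gene, Gad2 was higher in clusters 8 (17.8 and 26.0 CPM, 0.55) and 2 (20.2 and 25.9 CPM, 0.36) and lower in cluster 0 (270 and 242 CPM, -0.16), where Slc32a1 was lower too (22.6 and 19.0 CPM, -0.25). Below that limit, Gad2 was lower in cluster 23 (-1.94, on 29 sham and 17 injury UMIs) and higher in cluster 13 (2.37, on 4 and 11 UMIs). Gad1, also below it, was higher in clusters 8 (1.63, on 5 and 15 UMIs) and 5 (0.96, on 15 and 28 UMIs). Cluster 2, led by Lmx1a and Ebf3, had all 3 GABA genes higher, with Gad1 at 5.76 and 9.40 CPM and Slc32a1 at 1.82 and 3.16 CPM. These values are low, and oligodendrocytes had Gad1 at 0 and 5.16 CPM and Slc32a1 at 2.34 and 1.41 CPM. The part of such background in cluster 2 was not tested. All these are differences between 2 pools of mice.

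**Figure D5:**
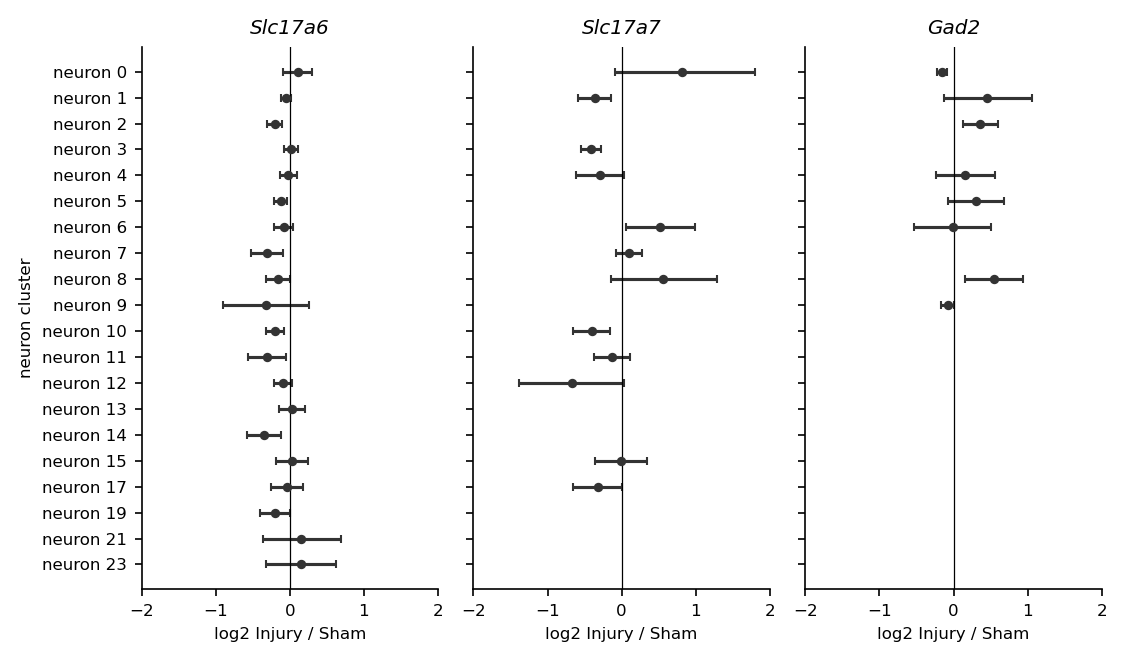
The log2 ratio of injury to sham for Slc17a6, Slc17a7 and Gad2 in the neuron clusters that held at least 50 nuclei per library and 50 UMIs of the gene. Bars are 95% counting intervals and the line marks 0. For Slc17a6 6 of 18 Slc17 neuron clusters lie wholly below 0 and none above, and for Slc17a7 clusters 1, 3 and 10 lie below and cluster 6 above. No share over all genes was taken per cluster to set beside these counts.

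Genes that supply, take up and break down the 2 transmitters were examined beside them. Of 18 such genes, 11 were higher in Gad than in Slc17 neurons beyond counting error and 3 lower. Over all 20098 genes with enough UMIs, 52.9% were higher by the same rule and 17.6% lower. GABA transaminase, Abat, which breaks GABA down, was at 135 CPM in Gad and 73.5 CPM in Slc17 neurons. The glial-type glutamate transporter Slc1a2 was the reverse, at 80.1 and 265 CPM. Between the libraries, 3 of the 16 genes with enough UMIs in Slc17 neurons passed 0.25 in either direction, beside 28.2% of all genes, with a median log2 ratio of 0.01 beside 0.00. Those higher were Slc1a3 (1.17 and 2.61 CPM, 1.15) and Slc6a11 (6.02 and 7.28 CPM, 0.27). Slc1a3 is an astrocyte gene, and astrocytes were 209 sham and 512 injury nuclei. The part of their free RNA was not tested.

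In Gad neurons 3 of 15 such genes were higher (Glul, Slc1a2 and Slc1a3) and none lower past 0.25, beside 33.8% of all genes in either direction, and without the uneven cluster 16 only Glul was (4.46 and 6.06 CPM, 0.44). All 14 transcription factors of GABAergic neurons were higher in Gad than in Slc17 neurons, beside the 52.9% of all genes, and that split was made with the Gad genes. Between the libraries in Gad neurons, 4 were higher and 5 lower past 0.25, or 9 of 14 beside the same 33.8%, with a median of -0.10 beside -0.01 over all genes. Those lower included Tal1 (6.21 and 3.11 CPM, -0.996), Lhx1 (21.3 and 11.7 CPM, -0.87), Pax6 (31.1 and 20.8 CPM, -0.58) and Gata3 (10.4 and 7.71 CPM, -0.43), while Dlx1 was higher (11.6 and 18.5 CPM, 0.67). Without cluster 16 the counts were 3 higher and 4 lower, or 7 of 14 beside 30.2% of all genes, and the interval lay above 0 in 2 and below it in 3, with Lhx1 at -0.66, Tal1 at -0.78, Pax6 at -0.43, Gata3 at -0.21 and Dlx1 at 0.26.

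The genes whose level varied most like each member over the clusters were taken from 14229 genes in 40 sums, 1 for each of 20 clusters in each library. The sums of 1 library share their depth and background, so r is a description. For Slc17a6 the nearest were Ano5 (Pearson r of 0.83), which lies 23.3 kb away on the same strand, and the prohormone convertase Pcsk2 (0.81). For Slc17a7 it was the synaptic scaffold gene Homer2 (0.83), and for Slc17a8 the Eph receptor gene Ephb6 (0.77). For Gad1 it was Gad1os (0.94), the antisense gene that overlaps it, followed by Erich2 (0.92), 12.2 kb away. For Gad2 it was Gm14204 (0.90), followed by the transcription factor genes Meis2 (0.87) and Six3 (0.87). Gm14204 also came first for Slc32a1 (0.94), from which it lies 0.044 kb away on the opposite strand, followed by Dlx1 (0.94). Among the members, r was 0.77 for Gad1 with Gad2, 0.83 for Gad2 with Slc32a1 and -0.83 for Slc17a6 with Gad1. For Slc17a6 with Slc17a7 it was 0.25.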

How the data were processed

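The authors deposited raw UMI count tables per barcode, made with Cell Ranger 6.0.2 on GRCm38 after bcl2fastq, and analysed them with Seurat 4.0. The annotation release and whether introns or strand were used are not given in the sources used here. Their stated limits were applied again: nuclei with over 2% mitochondrial UMIs, over 7500 or under 200 genes were removed, and 16373 of 16390 sham and 21777 of 21828 injury barcodes were kept, with 137850696 and 180106314 deposited UMIs. No doublet removal is named, so doublets were called with Scrublet in scanpy 1.11.5 and kept as a label.

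Nuclei were integrated and clustered in Seurat 5.3.0 (R 4.3.3) on 1996 variable features, without the 6 genes, with 30 components. A cluster with over 50% called doublets was set aside as mixed, and one whose glial list stood over 4 log2 units above its median was named as that glial class; both limits were set after the data were seen. Neuron clusters were split by the summed levels of the 6 genes. Levels are UMIs per 1000000 UMIs (CPM), with exact Poisson intervals for sums, exact Clopper-Pearson intervals for shares and binomial intervals for ratios. A gene needed 50 UMIs and a log2 ratio of 0.25 to be called, and a cluster 50 nuclei per library to be compared. With 1 library per group no test across genes was run; edgeR 4.0.16 gave TMM factors only. The intervals of ratios were checked on simulated counts, and the doublet formula on simulated nuclei, in Python 3.11.15. Those nuclei were positive or negative as the formula assumes, without UMI counts or free RNA. That check therefore covers the arithmetic of the formula only.

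The 6 members were named in full, and other genes came from fixed lists or were the nearest in Pearson r among genes with 500 UMIs. The members and lists were chosen with earlier results of these data known. Alternatives changed the scaling, depth, doublet share, UMI threshold and weighting. Some genes of these lists are not reported here.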

Additional observations from a re-analysis of the deposited data

How the results depend on the processing

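No paired analysis was possible because only 1 library stood for a group, which also leaves no library to omit. Under the alternatives, 93 values stayed within their counting interval or, for numbers of genes, within 1.5 times, 43 moved further and 2 reversed. The causes were not tested. A change of sign within the interval was counted as staying, and a doublet ratio that fell below 1 as moving. The weighting by sham shares over all nuclei, given above, is not among these values. Alternatives that left out the clusters with under 50 nuclei in 1 library, and the oligodendrocyte limits of 5 and 20 UMIs, were chosen after seeing the data.

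Without those clusters the log2 ratio of Slc17a7 reversed, to -0.12 over all nuclei and, with an interval that spanned 0, -0.051 in Slc17 neurons. The ratios over all nuclei were then -0.22 for Slc17a6, 0.44 for Gad1 and 0.33 for Gad2, and that of Slc17a6 in Slc17 neurons -0.13. With TMM factors Slc17a6 was at -0.32. As a mean over the CPM of nuclei, Slc17a6 was at -0.38, Slc17a8 at -0.41, Gad1 at 0.50 and Gad2 at 0.29, and Slc17a7 in Slc17 neurons at 0.41. Thinned to 3000 UMIs, the ratios were -0.34 for Slc17a6, 0.27 for Slc17a7, -0.46 for Slc17a8, 0.31 for Gad2 and 0.16 for Slc32a1. In Slc17 neurons, cluster ratios weighted by sham shares gave -0.11 for Slc17a6 and 0.041 for Slc17a7, and subtracting the oligodendrocyte level gave 0.45 for Slc17a7. Without called doublets Gad2 in Gad neurons was at -0.11.

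The ratio of nuclei with both gene sets to the doublet expectation, 1.29 for sham and 1.19 for injury nuclei, was 2.02 and 1.79 with 1 UMI on each side, 0.747 and 0.518 with 5 UMIs, 2.34 and 2.10 at 0.4% doublets per 1000 barcodes. It was 0.354 and 0.348 after thinning, which also thins the doublets, and 0.544 and 0.561 without called doublets, which stay in the expectation; both are low by construction and say nothing of an excess. The share of Gad1 nuclei with Gad2 was 60.4% and 54.3% after thinning and 72.3% and 67.7% with at least 2 UMIs. The share of Slc17a7 nuclei with Slc17a6 was 29.9% and 24.2% after thinning, 46.8% and 33.3% with at least 2 UMIs, and 66.5% and 54.1% without called doublets, and 64.7% for injury nuclei without the uneven clusters. With no filter on low counts, 13238 genes passed 0.25 over all nuclei, 12092 in Slc17 neurons and 13777 in Gad neurons, against 6659, 5492 and 5419.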
